A study of Homo sapiens with 20 samples.

Results

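The comparison of live Bifidobacterium lactis 420 with medium alone at 8 h was made on 4 of the 20 arrays of the series, 2 with the bacteria and 2 without. It was defined by the labels, and the quantity compared was the difference of the 2 group means for each gene. The cells were Caco-2, an established line from a human colon carcinoma whose cells take on enterocyte features once confluent, grown on inserts by a 5-day differentiation protocol. In the treated group, B. lactis 420, labelled as B. animalis ssp. lactis 420, had been grown in MRS broth, washed once and added to the apical side in antibiotic-free differentiation medium at 20 to 100 bacteria per Caco-2 cell for 8 h. The other 8 h co-cultures, with Lactobacillus acidophilus NCFM and with L. salivarius Ls-33, were set up in the same way and are used here to ask where B. lactis 420 differs from other live bacteria. Cells given sterile-filtered B. lactis 420 culture supernatant at 10% of the medium volume for 24 h are used for their levels only, because time differs as well. The 8 h medium group received the differentiation medium without bacteria. Each group had 2 arrays, all labelled from 5 µg of total RNA. All groups share 1 tumour cell line and no other cell type, and no group that received MRS broth alone was analysed here.

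The 2 arrays of a group are called duplicates by the submitters, and nothing says that they came from separate cultures, so p-values measure the spread between arrays, which may be technical. Signals are log2 values of probe sets, the groups of short probes that stand for a transcript, and the median signal was 2.67 to 2.70 in the 8 arrays of the co-cultures and 8 h medium. Across probe sets, which are not independent, the duplicates correlated at r = 0.9961 with B. lactis 420, 0.995 with NCFM, 0.9964 with Ls-33 and 0.9957 in medium. The 3' minus 5' difference of the actin control probe sets, a sign of RNA integrity and labelling, was 1.08 and 1.27 with B. lactis 420, against 0.88 and 0.80 in medium. It was 1.25 and 1.54 with NCFM and 1.26 and 1.23 with Ls-33. This measure therefore moved with every comparison against medium below, and its part in them was not tested. In bulk RNA, fewer cells of a type and less RNA per cell cannot be told apart.

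NF-kB is a family of dimeric transcription factors that epithelial cells activate when they sense bacterial products or cytokines. Inhibitory IkB proteins hold the dimers in the cytoplasm, and the active dimers induce chemokines and defence genes together with their own inhibitors, among them the IkB gene NFKBIA, the ubiquitin-editing enzyme gene TNFAIP3 (A20) and the microRNA miR-146a, which targets adaptors of the receptor pathway. Enterocytes are the absorptive cells of the gut, which carry digestive enzymes and transporters on a brush border, package dietary fat into lipoproteins and, in Caco-2 cells, also secrete several proteins of blood plasma.

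The sequences shown are those of the microRNA that the most raised probe set is named for and of the promoters of 4 loci that B. lactis 420 raised. The mature microRNA is shown with its seed, bases 2 to 8, in capitals (RefSeq, GRCh38.p14, chr5:160485372-160485393, plus strand).
hsa-miR-146a-5p: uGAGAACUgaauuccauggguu
The promoter windows run from 250 bases before to 50 bases after the start site of RefSeq (GRCh38.p14), on the strand of the gene, with matches to the 10-base kB consensus on either strand in capitals.
TNFAIP3 (chr6:137867009-137867308, plus strand): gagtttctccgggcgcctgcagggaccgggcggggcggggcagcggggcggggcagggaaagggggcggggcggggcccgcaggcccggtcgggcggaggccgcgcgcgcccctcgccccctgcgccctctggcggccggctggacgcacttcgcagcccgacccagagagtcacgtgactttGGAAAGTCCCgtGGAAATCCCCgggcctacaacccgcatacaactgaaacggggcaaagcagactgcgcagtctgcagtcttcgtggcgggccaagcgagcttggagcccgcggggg
NFKBIA (chr14:35404700-35404999, minus strand): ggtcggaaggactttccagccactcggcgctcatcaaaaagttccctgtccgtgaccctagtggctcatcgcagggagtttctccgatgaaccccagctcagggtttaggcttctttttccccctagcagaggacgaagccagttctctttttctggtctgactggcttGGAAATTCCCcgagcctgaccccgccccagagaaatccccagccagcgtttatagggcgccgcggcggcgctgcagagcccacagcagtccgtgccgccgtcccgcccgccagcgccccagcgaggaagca
MIR3142HG, the host gene of miR-146a (chr5:160468001-160468300, plus strand): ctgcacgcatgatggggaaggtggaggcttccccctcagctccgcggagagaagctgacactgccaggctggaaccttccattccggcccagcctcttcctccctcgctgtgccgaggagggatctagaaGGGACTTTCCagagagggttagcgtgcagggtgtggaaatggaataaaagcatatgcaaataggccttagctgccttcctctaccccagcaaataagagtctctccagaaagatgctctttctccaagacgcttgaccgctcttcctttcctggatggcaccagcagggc
CCL20 (chr2:227813592-227813891, plus strand): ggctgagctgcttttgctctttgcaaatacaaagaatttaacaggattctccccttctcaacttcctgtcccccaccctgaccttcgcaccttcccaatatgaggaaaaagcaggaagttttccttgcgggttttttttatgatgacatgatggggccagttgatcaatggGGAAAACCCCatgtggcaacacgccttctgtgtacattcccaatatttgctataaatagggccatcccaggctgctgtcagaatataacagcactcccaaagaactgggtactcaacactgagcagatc
The TNFAIP3 window holds 2 matches, starting at -67 and -55 from the start site, and the others hold 1 each, at -81 for NFKBIA, -120 for MIR3142HG and -79 for CCL20. The start site of the host gene lies 17121 bases before the mature microRNA. Of all 35116 promoter windows of this length 11.3% held a match, as did 13.4% of the windows of genes tested on the arrays. Among NF-kB subunit and feedback genes that rose with B. lactis 420, 6 of 9 had a window and all 6 of these had a match, namely NFKBIA, TNFAIP3, NFKBIZ, NFKB2, REL and TNIP1 (8 of their 10 windows). Counted by gene, 17.3% of tested genes with a window had a match. The 6 genes were picked by list membership and by their call, so their share describes them and is not a test. Windows of ICAM1, CXCL8, CASP5 and KCNJ13, which also rose, had no match. Only exact matches were counted, so a window without one may still hold a kB site that departs from the consensus. Of windows of genes at least 2-fold higher than medium 17.2% held a match, against 9.94% of windows of genes at least 2-fold lower. Counted by gene these shares were 20.4% and 14.4%, beside 17.3% of genes tested, and the difference was not tested. A match is a string of letters and does not show binding.

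Against medium, B. lactis 420 co-culture changed many genes in small steps and a short list of genes in large ones. limma called 4184 of 11865 genes tested (35.3%) at an adjusted p under 0.05, 2173 higher (18.3%) and 2011 lower (16.9%). Of these, 203 were at least 2-fold higher and 277 at least 2-fold lower, and 27 and 48 passed 4-fold. The median difference over all genes tested was 0.0087 log2 and the median standard error 0.15. In 143 a group mean lay under 2.74, the floor of mean signal a gene needed to be tested, so that its fold is uncertain. Direction could depend on the probe set. Where 2 or more probe sets of a gene were called, which held for 1440 genes, 138 (9.58%) had calls in both directions. Counts of list members against medium below are to be read beside the shares over all genes, 18.3% higher and 16.9% lower.

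**Figure D1:**
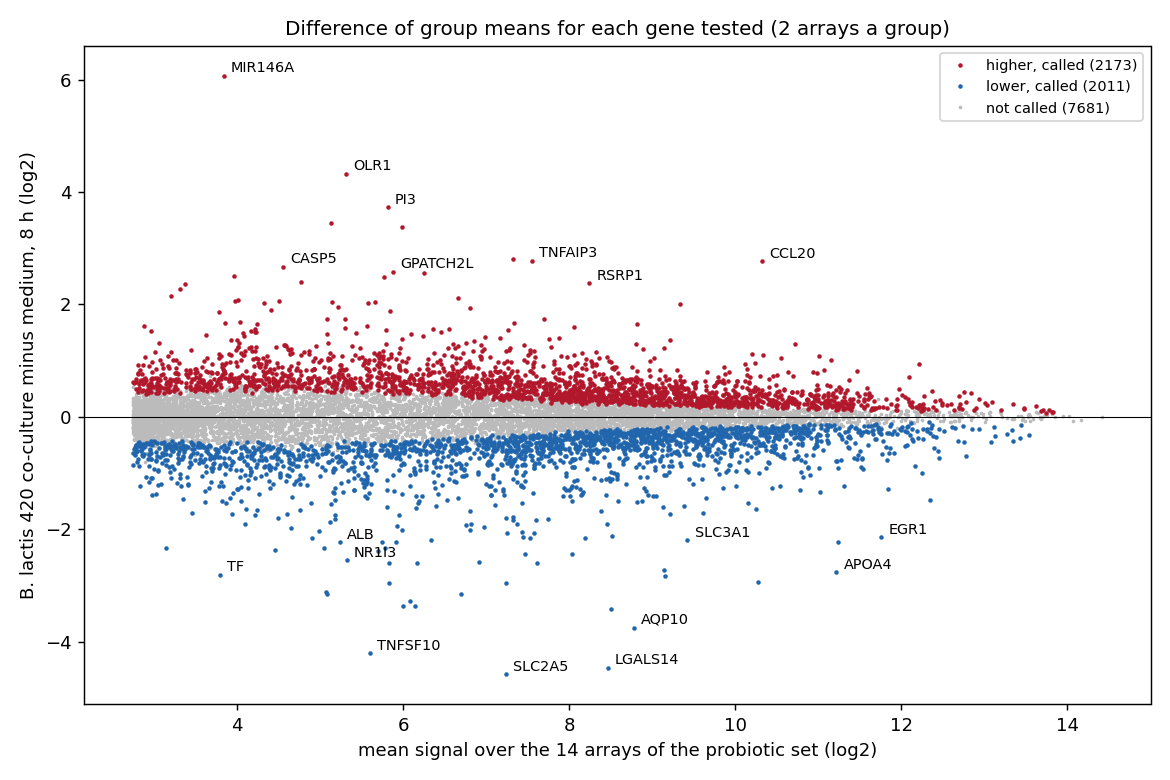
Each point is 1 of 11865 genes, with the mean signal over 14 arrays (log2) on the horizontal axis and the B. lactis 420 minus medium difference of group means (log2) on the vertical axis. Points in red are the 2173 genes called higher and points in blue the 2011 called lower. MIR146A stands highest at 6.07 and SLC2A5 lowest at -4.58, and most called genes lie within 1 log2 unit of zero.

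The feedback inhibitors of NF-kB gave the largest rise of all. The probe set annotated to MIR146A, on an array that does not measure mature microRNAs, had log2 signals of 8.24 and 8.32 with B. lactis 420, against 2.28 and 2.14 in medium. The medium arrays lie under the floor and the B. lactis 420 arrays far above it, a difference of 6.07 ± 0.17 (SE, adjusted p = 7.76e-16). TNFAIP3, which removes activating ubiquitin chains from the signalling complex, read 9.20 and 9.49 with B. lactis 420, against 6.67 and 6.46 in medium (2.78 ± 0.13, 6.85-fold, adjusted p = 3.23e-12). NFKBIZ, an atypical nuclear IkB protein, read 10.57 and 10.55, against 8.53 and 8.58 in medium (2.01 ± 0.07, 4.02-fold, adjusted p = 9.86e-14). Both groups were tight and well apart for these genes.

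Smaller rises were found for the classical inhibitors. NFKBIA read 9.21 and 9.17 with B. lactis 420, against 8.50 and 8.48 in medium (0.70 ± 0.09, adjusted p = 3.50e-06). NFKBIE, another IkB, rose by 1.04 ± 0.19 and TNIP1, a partner of A20, by 0.72 ± 0.09, although the other TNIP1 probe set was called lower. Of 12 tested feedback inhibitors, 6 rose and none fell, with a median difference of 0.47. Among the 6 is MIR146A, which passed the filter through groups where it is high, since its medium mean lay under the floor. The remaining members of the list were not called, with NFKBIB at 0.25, TNIP2 at 0.18 and CYLD, a deubiquitinase, at 0.03. TNIP3 lay under the floor of the test. Of the 5 subunits of NF-kB itself, 3 rose, namely NFKB2 by 1.38 ± 0.16, RELB by 1.06 ± 0.19 and REL by 0.63 ± 0.17, where the REL call was lost without the first B. lactis 420 array (0.51) or the first medium array (0.58). RELA and NFKB1 differed by 0.17 and 0.10 (adjusted p = 0.295 and 0.715). The medium mean of RELB lay under the floor, with arrays at 2.76 and 2.27, so RELB too passed the filter through other groups.

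**Figure D2:**
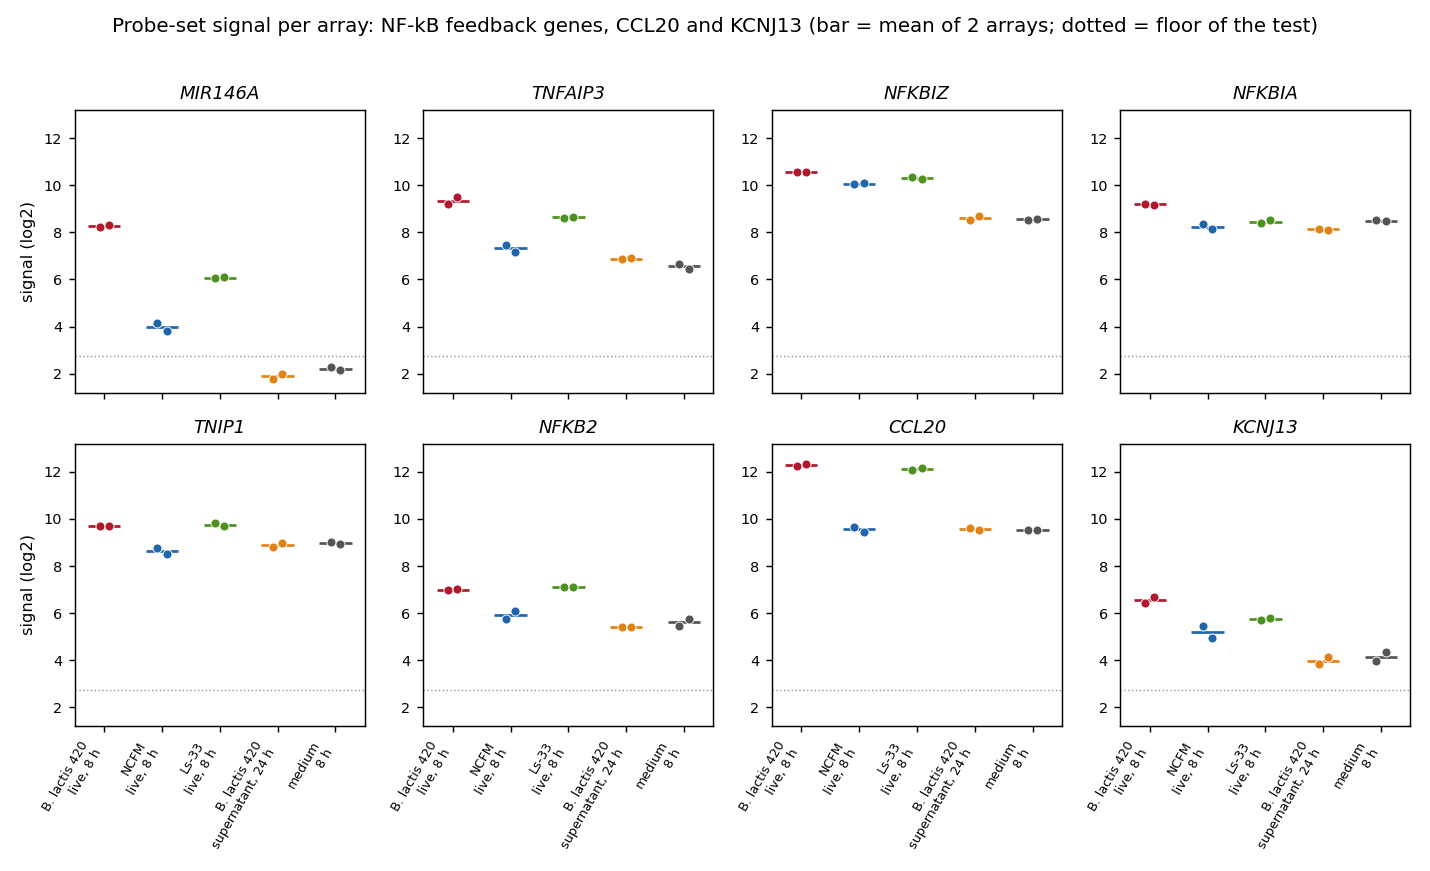
Log2 signal of 8 probe sets in each array, with B. lactis 420 co-culture, NCFM co-culture, Ls-33 co-culture, B. lactis 420 supernatant (24 h) and 8 h medium from left to right, a bar at the mean of 2 arrays and a dotted line at the floor of 2.74. MIR146A, TNFAIP3, NFKBIA and KCNJ13 stand highest with B. lactis 420, while CCL20, TNIP1 and NFKB2 lie at similar levels with B. lactis 420 and Ls-33.

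Of these inhibitors, MIR146A, TNFAIP3 and NFKBIA were higher with B. lactis 420 than with either other live strain. The contrasts are direct, and no medium array enters them. Of the 12 tested, 5 were higher and 0 lower than with NCFM, and 3 were higher and 1 lower than with Ls-33. Against Ls-33 the median of the 12 was 0.05 and the lowest difference -0.39. Over all genes, 2.28% were higher and 0.759% lower than with NCFM, and 2.70% higher and 2.88% lower than with Ls-33. MIR146A read 4.14 and 3.82 with NCFM and 6.08 and 6.08 with Ls-33, so that B. lactis 420 exceeded NCFM by 4.29 ± 0.17 (adjusted p = 1.77e-12) and Ls-33 by 2.20 ± 0.17 (adjusted p = 1.08e-07). TNFAIP3 exceeded NCFM by 2.03 ± 0.13 and Ls-33 by 0.71 ± 0.13 (adjusted p = 3.43e-09 and 0.00280), and the call against Ls-33 was lost without the second B. lactis 420 array (0.56). NFKBIA exceeded NCFM by 0.95 ± 0.09 and Ls-33 by 0.73 ± 0.09 (adjusted p = 7.00e-07 and 3.94e-05), and its arrays with both other strains (8.33 and 8.16 with NCFM, 8.40 and 8.51 with Ls-33) lay near those of medium. IER3, an early response gene that guards against cell death, did not differ from medium past the threshold (0.15 ± 0.08, adjusted p = 0.138) but exceeded NCFM by 0.77 ± 0.08 and Ls-33 by 0.46 ± 0.08. KCNJ13 is an inward rectifier potassium channel and no inhibitor of NF-kB. It read 6.43 and 6.69 with B. lactis 420, against 3.98 and 4.34 in medium (2.40 ± 0.20, 5.28-fold). KCNJ13 exceeded NCFM by 1.37 ± 0.20 and Ls-33 by 0.81 ± 0.20. The call of KCNJ13 against Ls-33 was lost when any 1 array of these strains was left out (0.68 to 0.95). It was also lost without the trend on mean signal in the fit. In cells given B. lactis 420 supernatant for 24 h, MIR146A read 1.78 and 2.01, TNFAIP3 6.86 and 6.89 and NFKBIA 8.15 and 8.12.

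Of the 6 chemokine genes tested, out of 18 with a probe set, 3 rose and 1 fell. CCL20, which draws dendritic cells and lymphocytes to the mucosa, read 12.24 and 12.35 with B. lactis 420, against 9.53 and 9.52 in medium (2.76 ± 0.07, 6.80-fold, adjusted p = 5.27e-16). It exceeded NCFM by 2.73 ± 0.07, where the arrays were at 9.67 and 9.46. Against Ls-33 the difference was 0.17 ± 0.07 (adjusted p = 0.196), with Ls-33 arrays at 12.08 and 12.16. CXCL8, the neutrophil chemokine IL-8, read 4.30 and 4.92, against 1.75 and 2.75 in medium (2.36 ± 0.25), and CXCL10, an interferon-inducible lymphocyte chemokine, 3.53 and 3.78, against 1.98 and 2.09 (1.62 ± 0.16). The medium means of CXCL8 and CXCL10 lie under the floor, so these 2 passed the filter only through groups where they are high. The count of 3 rises includes them and is no support by itself. CXCL16, the membrane-bound ligand of CXCR6, fell to 5.33 and 4.83, against 6.67 and 6.32 in medium (-1.42 ± 0.19). CXCL3 differed by 0.49 ± 0.22 (adjusted p = 0.0969). The neutrophil chemokine genes CXCL1, CXCL2 and CXCL5 lay under the floor and were not tested.

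Of the genes with which cells sense bacteria, those that rose encode inflammatory caspases and signalling kinases. Among 14 tested sensing genes of 26 with a probe set, 4 rose and none fell, with a median of -0.0244. The 4 that rose were 28.6%, beside 18.3% over all genes, where 16.9% fell. CASP5, a cytosolic sensor of lipopolysaccharide, read 6.43 and 5.96 with B. lactis 420, against 3.78 and 3.25 in medium (2.68 ± 0.20, 6.39-fold), and CASP4, with the same role, 6.91 and 7.51, against 6.09 and 5.88 (1.23 ± 0.19, with no call for its other probe set). IRAK2, a kinase of Toll-like receptor signalling, rose by 1.26 ± 0.22 and RIPK2, the kinase below the NOD receptors, by 0.52 ± 0.19, a call lost without any 1 of the 4 arrays (0.40 to 0.63). MYD88 and IRAK1 differed by -0.12 and -0.01, NOD1 by -0.39 (adjusted p = 0.0506) and TLR5, the flagellin receptor, by -0.36 (adjusted p = 0.0993). TLR2, TLR3, TLR4, TLR9 and NOD2 lay under the floor.

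Some defence genes rose to levels between those of the other strains, while their lists split. Of 13 complement genes tested 4 rose and 3 fell against medium (median -0.20), and of 11 genes of antimicrobial and acute phase proteins 4 rose and 3 fell (median 0.10). These were 30.8% and 23.1% of the former and 36.4% and 27.3% of the latter, beside 18.3% and 16.9% over all genes. In the latter list 1 tested member had a medium mean under the floor. Against NCFM 3 and 4 members of these lists were higher and 0 lower, and against Ls-33 3 and 4 were lower and 1 of each higher. Over all genes, 2.28% were higher and 0.759% lower than with NCFM, and 2.70% higher and 2.88% lower than with Ls-33. The genes named here are among the called ones. OLR1, a scavenger receptor, read 7.81 and 7.81 with B. lactis 420, against 4.60 and 4.66 with NCFM, 9.15 and 9.28 with Ls-33 and 3.45 and 3.53 in medium. PI3, the antiprotease elafin, read 8.18 and 8.30, against 5.07 and 4.86 with NCFM, 9.27 and 9.41 with Ls-33 and 4.67 and 4.34 in medium. C3, the central complement component, read 7.19 and 7.41, against 4.37 and 3.86 with NCFM, 8.14 and 8.10 with Ls-33 and 3.61 and 4.11 in medium. For all these genes both B. lactis 420 arrays lay above both NCFM arrays and below both Ls-33 arrays. OLR1 exceeded NCFM by 3.18 ± 0.16 and differed from Ls-33 by -1.40 ± 0.16, PI3 by 3.28 ± 0.18 and -1.10 ± 0.18, and C3 by 3.19 ± 0.21 and -0.81 ± 0.21. CASP5 differed by 2.80 ± 0.20 and -2.10 ± 0.20 and CXCL10 by 1.46 ± 0.16 and -2.52 ± 0.16, where the NCFM mean of CXCL10 lay under the floor. CXCL8 differed by 2.15 ± 0.25 and -0.94 ± 0.25, also with the NCFM mean under the floor. The calls of C3 and CXCL8 against Ls-33 were lost without either Ls-33 array (-0.79 and -0.84 for C3, -0.88 and -0.999 for CXCL8) or without the first B. lactis 420 array (-0.70 and -0.63), and for C3 also without the second (-0.93). Both calls were also lost without the trend on mean signal in the fit. LRG1, a secreted acute phase glycoprotein, read 7.12 and 6.98 with B. lactis 420, against 4.44 and 4.66 in medium, and differed from NCFM by 2.84 ± 0.19 and from Ls-33 by -2.10 ± 0.19.

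Of 17 adhesion genes tested 5 rose and 4 fell against medium, 6 were higher and 0 lower than with NCFM, and 8 were lower and 0 higher than with Ls-33. Against medium these were 29.4% and 23.5%, beside 18.3% and 16.9% over all genes. The shares over all genes were 2.28% higher and 0.759% lower against NCFM, and 2.70% and 2.88% against Ls-33. The members named here were chosen from the called ones. CEACAM7, an adhesion molecule of colon epithelium, rose by 3.37 ± 0.28 over medium and differed from NCFM by 2.95 ± 0.28 and from Ls-33 by -1.62 ± 0.28. CEACAM5, the carcinoembryonic antigen, rose by 1.21 ± 0.09 and differed by 1.28 ± 0.09 and -1.16 ± 0.09. CEACAM1 fell by 0.92 against medium (-0.92 ± 0.06), while exceeding NCFM by 0.58 ± 0.06 and differing from Ls-33 by -0.82 ± 0.06. ICAM1, the leukocyte adhesion receptor, read 7.80 and 7.87 with B. lactis 420, against 6.003 and 6.050 with NCFM, 9.17 and 9.24 with Ls-33 and 7.35 and 7.35 in medium. Its rise over medium was small (0.49 ± 0.10, adjusted p = 0.000981) beside its distances from NCFM (1.81 ± 0.10) and Ls-33 (-1.37 ± 0.10), and neither of its other probe sets was called. Genes of other lists included IL32 and TNFRSF9. IL32, a cytokine of epithelial inflammation, read 10.61 and 10.53, against 9.51 and 9.41 in medium (1.12 ± 0.07), and differed from NCFM by 1.15 ± 0.07 and from Ls-33 by -0.80 ± 0.07. TNFRSF9, the receptor 4-1BB, rose by 2.82 ± 0.16 and KYNU, an enzyme of tryptophan breakdown, by 2.51 ± 0.30 over medium. Their differences from NCFM were 2.05 ± 0.16 and 2.25 ± 0.30, and from Ls-33 -1.02 ± 0.16 and -1.88 ± 0.30. Of the TNF family, 4 of 17 tested members rose (23.5%) and 6 fell (35.3%), with TNFSF15 at 4.85 and 4.88, against 6.93 and 6.81 in medium (-2.01 ± 0.17).

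**Figure D3:**
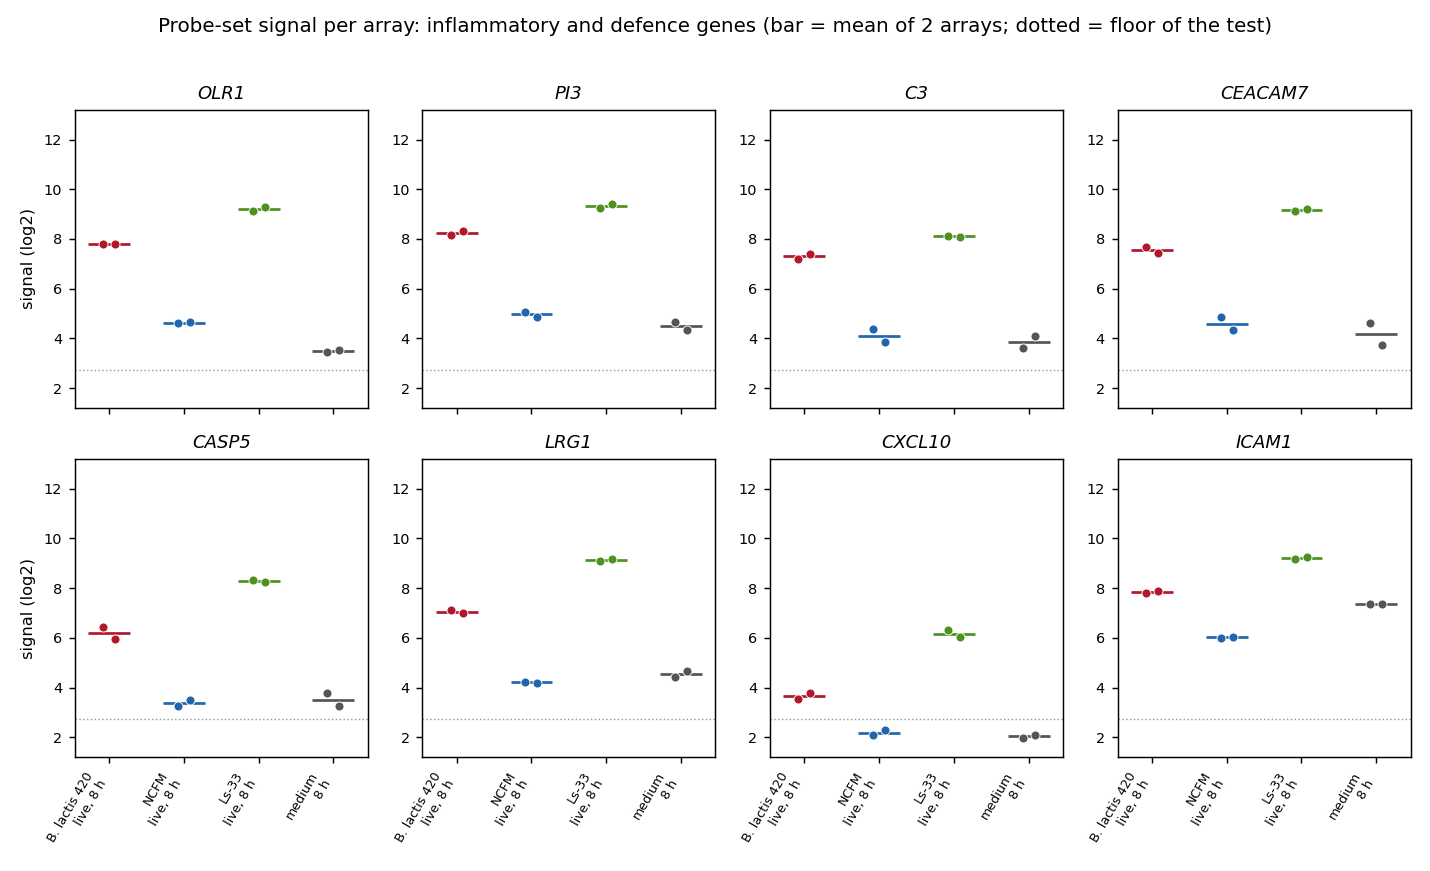
Log2 signal of 8 inflammatory and defence genes in each array, with B. lactis 420, NCFM and Ls-33 co-cultures and 8 h medium from left to right, a bar at the mean of 2 arrays and a dotted line at the floor of 2.74. For each gene both B. lactis 420 arrays lie above both NCFM arrays and below both Ls-33 arrays.

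Across all genes tested, B. lactis 420 differed from NCFM at 360 genes (3.03%), 270 higher (2.28%) and 90 lower (0.759%), and from Ls-33 at 662 (5.58%), 320 higher (2.70%) and 342 lower (2.88%). At least 2-fold differences were 38 higher and 0 lower against NCFM, where the lowest difference was -0.99, and 6 higher and 39 lower against Ls-33. Joint quantile normalization of the 14 arrays split the calls against NCFM into 211 higher and 131 lower. The counts moved with single arrays. Against NCFM they were 159 without the first B. lactis 420 array, 224 without the second, 505 without the first NCFM array and 234 without the second. Against Ls-33 they were 185, 412, 176 and 265 with the arrays left out in the same order, B. lactis 420 and then Ls-33. Against NCFM 2057 genes, and against Ls-33 2447, had an unadjusted p under 0.05. By rule, genes called against medium and against both strains were picked out, which gave 79. Of these, 51 lay above NCFM and below Ls-33, 13 above both strains, 7 below both and 8 below NCFM and above Ls-33. The 3 comparisons share the B. lactis 420 arrays, so this tally describes the genes and is not a separate result. Without the first B. lactis 420 array 37 genes met the rule, and without the second 49. EGR1, an immediate early transcription factor, was among those below both strains, at 10.44 and 10.31 with B. lactis 420, against 10.77 and 10.54 with NCFM and 10.73 and 10.69 with Ls-33 (-0.28 ± 0.06 and -0.34 ± 0.06). The EGR1 call against NCFM was lost without the second B. lactis 420 array (-0.22) or the first NCFM array (-0.17). It was also lost when only the 4 arrays compared were fitted. Without the trend on mean signal in the fit, the EGR1 calls against both strains were lost.

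Genes outside the inflammatory lists also separated the strains. EGLN3, an oxygen-sensing prolyl hydroxylase, read 6.07 and 5.94 with B. lactis 420, against 4.58 and 4.30 with NCFM, 7.18 and 7.18 with Ls-33 and 6.40 and 6.80 in medium. It exceeded NCFM by 1.56 ± 0.16 and differed from Ls-33 by -1.17 ± 0.16. Its fall against medium (-0.59 ± 0.16) was lost without the second array of either group (-0.53 and -0.39). LYZ, lysozyme, did not differ from medium past the threshold (-0.31 ± 0.16, adjusted p = 0.132) but exceeded NCFM by 0.94 ± 0.16. ID1, an inhibitor of differentiation factors and a BMP target, exceeded NCFM by 0.69 ± 0.07, and SMAD3, a transducer of TGF-beta signals, by 0.72 ± 0.14. The SMAD3 call was lost without the first B. lactis 420 array (0.69), and when only the 4 arrays compared were fitted. The replication genes GINS2 and MCM2 exceeded Ls-33 by 0.91 ± 0.17 and 0.82 ± 0.15. The GINS2 call was lost without the second array of either strain (0.74 and 0.78), and the MCM2 call without the first (0.73 and 0.64). In all, 8 of 31 genes of the G1/S transition and replication (25.8%) were higher than with Ls-33 and none lower, beside 2.70% and 2.88% over all genes.

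Interferon-stimulated genes did not move as a block. Of 25 tested, 8 rose (32.0%) and 6 fell (24.0%), beside 18.3% and 16.9% over all genes. OAS3, a sensor enzyme for double-stranded RNA, read 6.18 and 6.11 with B. lactis 420, against 4.11 and 4.09 in medium (2.05 ± 0.19), and IRF1, a transcription factor of interferon responses, rose by 0.66 ± 0.19. IFI27 read 4.05 and 4.12, against 5.60 and 6.20 in medium (-1.82 ± 0.22), and IFIT1, which binds foreign RNA, fell by 1.30 (-1.30 ± 0.17). Among antigen presentation genes, 5 of 14 rose and 5 fell (35.7% each). The peptide pump gene TAP1 and the immunoproteasome subunit PSMB9 rose by 0.81 ± 0.20 and 0.86 ± 0.16. The calls of IRF1 and TAP1 were lost without the first B. lactis 420 array (0.60 and 0.62) or the second medium array (0.59 and 0.62).

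Among growth signalling genes falls outnumbered rises, although most members of 2 of the 3 lists did not pass the test. EGR1 read 10.44 and 10.31 with B. lactis 420, against 12.54 and 12.49 in medium (-2.14 ± 0.06, 4.41-fold, adjusted p = 1.23e-15). Of 25 immediate early genes tested 7 fell (28.0%) and 1 rose, JUN, by 0.81 ± 0.14, with a median of -0.0526. CCN2, a matricellular target of several growth pathways, fell by 1.24 (-1.24 ± 0.18). The receptor genes EGFR and ERBB2 fell by 0.64 and 0.59 (-0.64 ± 0.06 and -0.59 ± 0.13), with 5 of 8 genes of that receptor family and its ligands lower and 0 higher. Some feedback regulators of the same pathway were lower. SPRY1, an inhibitor of receptor tyrosine kinase signalling, read 5.49 and 5.70, against 6.95 and 7.20 in medium (-1.48 ± 0.14), and DUSP6, the ERK phosphatase, fell by 0.75 (-0.75 ± 0.06). In that group of phosphatases and Sprouty genes 6 of 15 fell and 1 rose.

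Mitotic genes fell together. Of 26 tested, 17 fell (65.4%) and 0 rose, with a median of -0.41. CDC25C, the phosphatase that starts mitosis, read 4.10 and 4.06 with B. lactis 420, against 5.17 and 5.10 in medium (-1.06 ± 0.19). CENPE and KIF20A, motors of the mitotic spindle, fell by 0.92 and 0.79, and MKI67, the Ki-67 proliferation antigen, by 0.66, and the CENPE call was lost without the first array of either group (-0.71 and -0.74). Of 31 genes of G1/S and replication 8 rose (25.8%) and 2 fell (6.45%), beside 18.3% and 16.9% over all genes. CDK6, a kinase of G1 progression, differed by 0.48 ± 0.10 and CCND1, cyclin D1, by -0.46 ± 0.08.

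Genes for making ribosomes and for processing RNA were higher. Of 28 tested genes of ribosome biogenesis and RNA polymerase I, 18 rose (64.3%) and 1 fell, with a median of 0.52. TAF1D, which belongs to the selectivity factor of RNA polymerase I, read 8.53 and 8.69 with B. lactis 420, against 6.87 and 6.87 in medium (1.74 ± 0.13). Another subunit gene, TAF1A, rose by 1.56 ± 0.20, and the processing factor genes RRP12, UTP20 and NOP2 by 1.22, 1.05 and 0.91. In contrast, of 23 genes of cytosolic ribosomal proteins 1 rose and 1 fell, with a median of 0.0172. Splicing factor and CLK kinase genes rose in 16 of 27 cases (59.3%) and fell in 1. Among these, RSRP1 read 9.54 and 9.60, against 7.24 and 7.15 in medium (2.37 ± 0.10, 5.18-fold), LUC7L3, a U1 snRNP-associated factor, rose by 1.30 ± 0.06, and CLK1, a kinase of SR proteins, by 0.91 ± 0.11.

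Protein quality control rose by small steps and stress pathways split. Of 26 proteasome subunit genes 17 rose (65.4%) and 0 fell, with a median of 0.23 and a largest change of 0.62 in PSMD2. Heat shock genes rose in 11 of 19 cases and fell in 1. HSPH1, a large chaperone, rose by 1.29 ± 0.10 and SQSTM1, the autophagy receptor p62, read 10.85 and 10.73, against 9.67 and 9.71 in medium (1.11 ± 0.06). SQSTM1, from the list of NRF2 targets, also exceeded NCFM by 0.40 ± 0.06. Of 25 unfolded protein response genes 12 fell and 6 rose. TRIB3, a stress-induced pseudokinase and target of ATF4, fell by 1.38 (-1.38 ± 0.10). Of 34 hypoxia and glycolysis genes, 25 fell (73.5%) and 2 rose, with a median of -0.37.

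The apoptosis genes that rose included promoting and protecting ones. PMAIP1, the p53 target NOXA, read 5.98 and 6.07 with B. lactis 420, against 4.04 and 4.85 in medium (1.58 ± 0.21). BIK, another BH3-only killer, read 9.63 and 9.81, against 8.75 and 8.59 in medium (1.05 ± 0.09), and exceeded NCFM by 1.06 ± 0.09. CFLAR, the caspase-8 inhibitor c-FLIP, rose by 1.44 ± 0.21, with calls in the same direction in 7 of its other 11 probe sets. CASP10 rose by 1.67 ± 0.21, but its other probe set was not called. Of 20 apoptosis regulators 7 rose (35.0%) and 4 fell (20.0%), beside 18.3% and 16.9% over all genes. TNFSF10, the death ligand TRAIL, read 3.43 and 3.14, against 7.44 and 7.54 in medium (-4.21 ± 0.20).

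**Figure D4:**
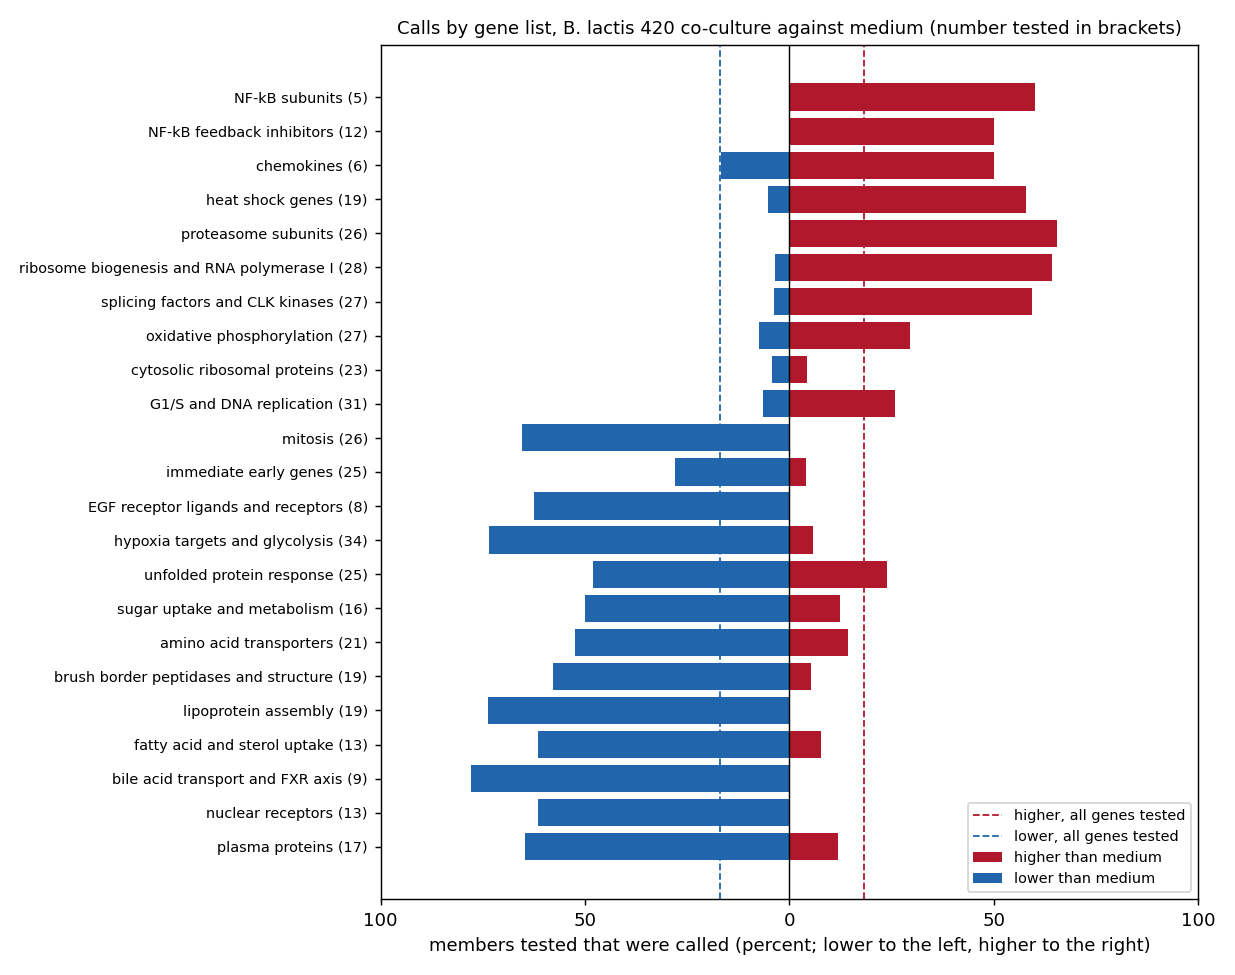
Percent of tested members of 23 gene lists that were called lower (bars to the left) or higher (bars to the right) with B. lactis 420 than in medium, with the number tested in brackets. Dashed lines mark the shares over all 11865 genes, 16.9% lower and 18.3% higher. Bars of the lipid, bile acid, hypoxia, mitosis and plasma protein lists extend to the left and those of proteasome, ribosome biogenesis, splicing and heat shock genes to the right.

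Transporters and enzymes of absorptive cells were among the largest falls. SLC2A5, the fructose transporter, read 4.38 and 4.60 with B. lactis 420, against 8.997 and 9.149 in medium (-4.58 ± 0.19, 23.9-fold lower, adjusted p = 5.12e-13). Among other large falls, LGALS14, a galectin gene, stood at 5.91 and 6.26, against 10.66 and 10.46 in medium, and AQP10, a water and glycerol channel, at 6.48 and 6.84, against 10.40 and 10.42. SERPINA6, which encodes the corticosteroid-binding globulin, fell by 3.37 and ARG1, arginase, by 3.16. AOC3, an amine oxidase, fell by 3.15 and SLC6A4, the serotonin transporter, by 2.61, and both were also below NCFM (-0.81 ± 0.15 and -0.88 ± 0.17). The SLC6A4 call against NCFM was lost without the second B. lactis 420 array (-0.82). Both the AOC3 and the SLC6A4 call against NCFM were lost when only the 4 arrays compared were fitted. In cells given B. lactis 420 supernatant for 24 h, SLC2A5 and AQP10 did not read low, at 9.51 and 9.72 for SLC2A5 and 10.45 and 10.39 for AQP10.

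Lipid and bile acid handling fell as groups. Of 19 lipoprotein assembly genes 14 fell (73.7%) and 0 rose, with a median of -0.58. APOA4, an apolipoprotein of chylomicrons, read 9.36 and 9.33 with B. lactis 420, against 12.11 and 12.11 in medium, and APOB fell by 1.23. Of 13 genes of fatty acid and sterol uptake 8 fell and 1 rose. SOAT2, which esterifies cholesterol in enterocytes, read 6.02 and 5.85, against 7.80 and 7.93 in medium (-1.93 ± 0.14). NPC1L1, the cholesterol uptake protein, and ABCA1, a sterol exporter, fell by 1.01 and 1.10. Of 9 bile acid genes 7 fell (77.8%) and 0 rose, including both subunits of the basolateral exporter. SLC51A read 6.34 and 6.23, against 9.67 and 9.74 in medium (-3.42 ± 0.15), and SLC51B 8.25 and 8.26, against 9.09 and 9.09 (-0.84 ± 0.12).

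Amino acid transporters and brush border genes fell in most cases, and metal handling genes split. SLC3A1 and SLC7A9 encode the subunits of the cystine transporter. SLC3A1 read 8.27 and 8.06 with B. lactis 420, against 10.35 and 10.37 in medium (-2.20 ± 0.08, 4.58-fold), and SLC7A9 3.36 and 3.77, against 5.11 and 5.34 (-1.66 ± 0.21). Of 21 amino acid transporter genes 11 fell and 3 rose, one of them SLC7A11, the cystine-glutamate exchanger, by 0.62 ± 0.17, a call lost without the second medium array (0.56). Of 15 iron handling genes 6 fell and 3 rose. SLC11A2, the iron importer DMT1, read 8.38 and 8.56, against 9.97 and 10.15 in medium (-1.59 ± 0.09), and HEPH, the ferroxidase of iron export, fell by 0.77. STEAP3, a ferrireductase, rose by 1.04 ± 0.17. Of 16 metallothionein and zinc transporter genes 4 fell (25.0%) and 3 rose (18.8%), with a median of -0.0754. SLC39A4, the zinc importer ZIP4, fell by 1.52 and the zinc exporter SLC30A1 by 0.91, while the metallothionein gene MT2A rose by 0.79 ± 0.08. Of 19 brush border genes 11 fell (57.9%) and 1 rose. ANPEP and MEP1A, peptidases, fell by 1.62 and 1.45, and MYO1A, the brush border myosin, by 1.44. The exception was SI, sucrase-isomaltase, at 7.65 and 7.84, against 6.72 and 6.79 in medium (0.99 ± 0.14). CFTR, the chloride channel of secretion, also rose, to 6.45 and 6.27, against 5.33 and 5.21 in medium (1.09 ± 0.17).

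Plasma proteins split between 11 that fell and 2 that rose among 17 tested, with a median of -0.86. SERPINC1, antithrombin, read 4.20 and 4.70 with B. lactis 420, against 7.04 and 7.05 in medium (-2.59 ± 0.18). ALB, albumin, read 4.23 and 4.66, against 6.61 and 6.75 (-2.23 ± 0.21), and AFP, alpha-fetoprotein, 6.73 and 6.44, against 8.81 and 8.66 (-2.14 ± 0.12). F2, prothrombin, fell by 2.07 and TF, transferrin, by 2.81, where the B. lactis 420 mean of TF lay under the floor. The members that rose were fibrinogen chains, acute phase proteins that interleukin-6 signalling induces in hepatocytes. FGB read 8.04 and 8.16, against 7.16 and 7.03 in medium (1.01 ± 0.11), and FGG 9.04 and 8.94, against 8.02 and 7.91 (1.02 ± 0.10). Both lay below Ls-33 (-1.15 ± 0.11 and -0.76 ± 0.10), and FGG lay above NCFM (0.72 ± 0.10).

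Nuclear receptors, ligand-regulated transcription factors of lipid and drug metabolism, were lower in 8 of 13 cases (61.5%) and higher in 0. NR1I3, the xenobiotic receptor CAR, read 3.89 and 3.73 with B. lactis 420, against 6.50 and 6.23 in medium (-2.56 ± 0.19). PPARA, the receptor for fatty acids, read 6.19 and 6.52, against 8.10 and 8.21 (-1.80 ± 0.15), with 6 of its other 7 probe sets called in the same direction. NR2F1 and NR1H3, the oxysterol receptor LXR-alpha, fell by 1.78 and 1.23. Among intestinal transcription factors 4 of 17 rose and 4 fell (23.5% each), beside 18.3% and 16.9% over all genes. MAF fell to 6.04 and 6.03, against 8.60 and 8.68 in medium (-2.61 ± 0.12), and ISX, a homeobox gene of the intestine, by 0.97, while FOXA1 rose by 0.95 ± 0.16 and the Notch target HES1 by 0.85 ± 0.11.

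**Figure D5:**
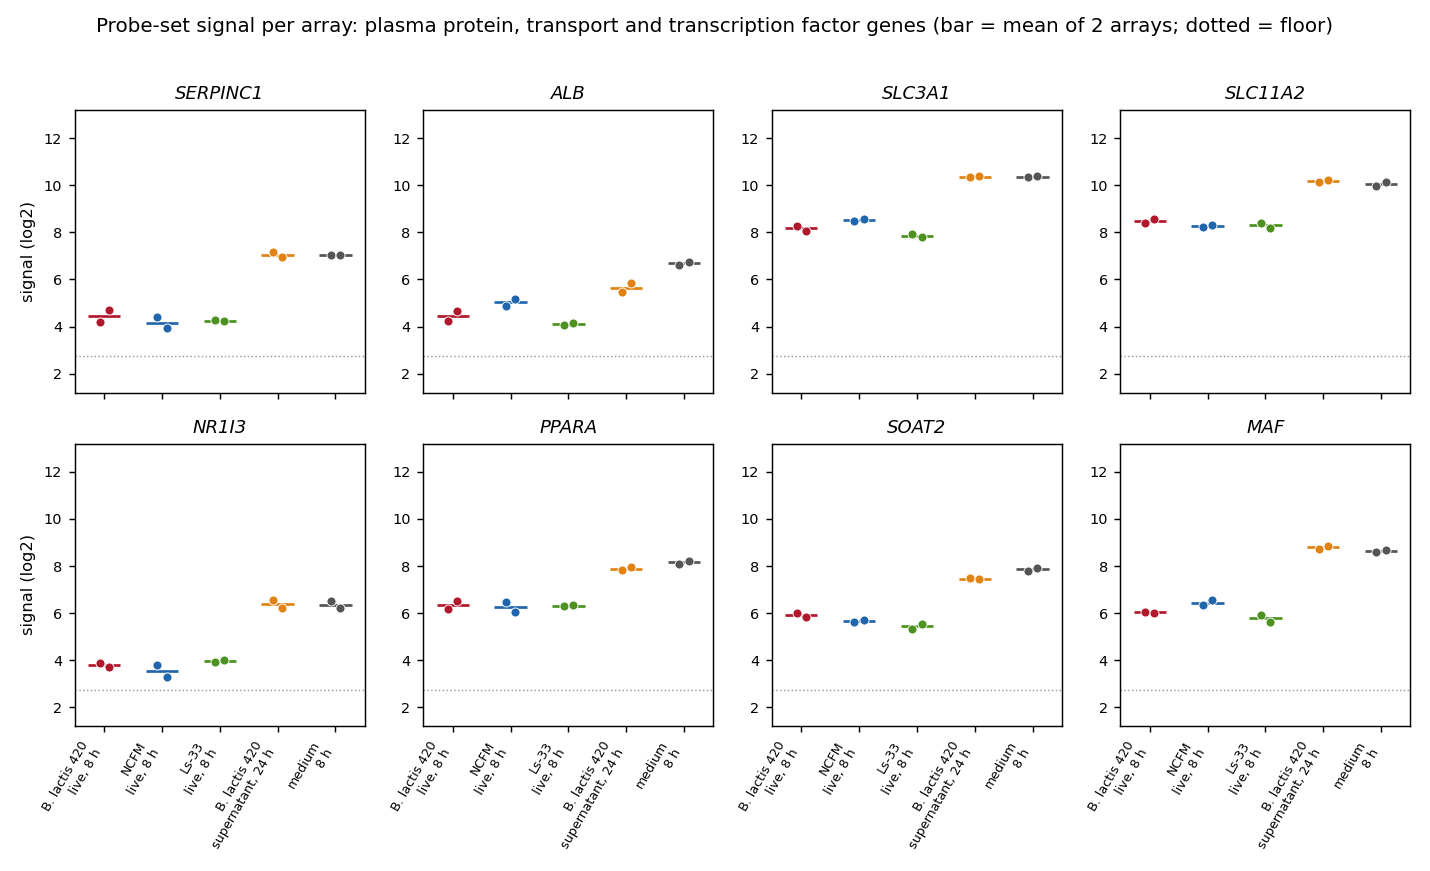
Log2 signal of 8 genes in each array, with B. lactis 420, NCFM and Ls-33 co-cultures, B. lactis 420 supernatant (24 h) and 8 h medium from left to right, a bar at the mean of 2 arrays and a dotted line at the floor of 2.74. The 6 co-culture arrays lie below both medium arrays for each gene, and the supernatant arrays lie above the co-culture arrays.

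Against NCFM, where 3.03% of all genes were called, none of the 19 lipoprotein assembly genes, 9 bile acid genes, 19 brush border genes or 16 metallothionein and zinc transporter genes was called. Sugar uptake and metabolism had 1 higher and 2 lower of 16, amino acid transporters 1 higher and 1 lower of 21, and the enterocyte markers 2 higher of 15. Against Ls-33, where 5.58% of all genes were called, lipoprotein assembly had 1 higher and 1 lower, bile acid genes 1 higher, and brush border genes 1 higher and 2 lower. Amino acid transporters had 3 higher and 1 lower, sugar uptake and metabolism 1 higher and 2 lower, metallothioneins and zinc transporters 4 higher, and enterocyte markers 3 lower. Several of these shares lie above that of all genes. The differences from NCFM were 0.06 ± 0.19 for SLC2A5, -0.30 ± 0.11 for AQP10 and 0.11 ± 0.14 for MTTP, the triglyceride transfer protein (adjusted p = 0.914, 0.173 and 0.738). The AQP10 difference became a call without the second B. lactis 420 array. LGALS14 was higher than with Ls-33 by 0.81 ± 0.12. Against NCFM no gene of ribosome biogenesis or mitosis was called, and 1 of 27 splicing genes was lower. Proteasome, heat shock and hypoxia genes had 2 of 26, 3 of 19 and 3 of 34 higher than with NCFM and 0 lower. Against Ls-33, 2 of 28 ribosome biogenesis genes were lower, and 4 of 26 mitotic and 7 of 27 splicing genes higher. Heat shock genes had 1 higher than with Ls-33, hypoxia genes 4 lower and proteasome genes 0 called.

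The label of differentiated Caco-2 cells was checked against cell type markers. All 15 enterocyte markers lay above the floor in every group, with a mean log2 signal of 8.976 and 8.997 in the B. lactis 420 arrays, against 9.65 and 9.58 in medium. Of these markers 10 fell and 2 rose. Of 8 goblet cell markers, 4 lay under the floor in every group (ATOH1, CLCA1, FCGBP and MUC2) and 4 were tested. The goblet list mean was 4.81 and 4.78 with B. lactis 420, against 4.89 and 4.97 in medium. Of 9 enteroendocrine markers 6 lay under the floor (CHGA, GCG, INSM1, PYY, SST and TPH1) and 3 were tested. Among 13 fibroblast and leukocyte markers 6 lay under the floor (CD3E, COL1A2, DCN, MS4A1, PTPRC and VWF) and 7 were tested. With most members above the floor, this list does not show that such markers were absent. Its mean was 4.97 and 4.94 with B. lactis 420, against 5.28 and 5.18 in medium. CD3D, listed as a T cell marker, read 6.61 and 6.29, against 8.32 and 8.25 in medium (-1.84 ± 0.13).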

How the data were processed

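RNA of Caco-2 cells was measured on Affymetrix HG-U133 Plus 2.0 arrays, and the deposited values are log2 probe set signals. Per the submitters' processing notes, the authors obtained them with RMA. Its version is not given in the sources used here, nor is it stated whether the 20 arrays were normalized jointly, and no per-sample column was left unused (0). Of 54675 probe sets, 41091 had 1 gene symbol in the platform annotation, 1801 had several and 11721 none, and the last 2 kinds were not named. Symbols were updated through RefSeq (GRCh38.p14), with 54 named probe sets unmatched. Each of 19775 genes was represented by its probe set of highest mean over all arrays, leaving out _x_at sets where others existed.

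Genes with a mean over 14 arrays at or above the 40th percentile (2.74) were tested, 11865 in all. That mean includes the co-culture arrays, so a gene under the floor in medium could be tested through groups where it is high. Besides members of the NF-kB and chemokine lists, this held for 1 tested member in each of 4 lists. They are the antimicrobial and acute phase, interferon-stimulated, heat shock, and G1/S and replication lists. limma 3.58.1 in R 4.3.3 (lmFit, eBayes with a trend) fitted the 7 groups of the probiotic set with 7 residual degrees of freedom, and p-values were adjusted by Benjamini-Hochberg over all genes tested and called under 0.05. Errors are standard errors of that fit. The number of arrays, 2 in a group, limits the precision. In a test on data simulated for this contrast, with 11865 genes, 41.8% of 1.5-fold, 88.1% of 2-fold and 100% of 4-fold changes were recovered, with 14 false calls. Far fewer genes were changed there than the 35.3% called in the data, and noise was drawn independently for each gene. These rates and false calls therefore do not carry over to the real comparison.

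Genes are named as the largest changes of each comparison, the largest called members of each list, and all members of the NF-kB, chemokine and sensing lists. Members and lists were chosen with earlier results of these data known. Alternatives were no filter, a 60th percentile filter, no trend, only the 4 arrays compared, joint quantile normalization, every probe set on its own, a replicate block and leaving out each array. The E. coli arrays, labelled from less RNA, entered no comparison.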

Additional observations from a re-analysis of the deposited data

Results flagged for a closer look

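The contrasts of the live strains test directly whether the effect of B. lactis 420 on Caco-2 cells differs from that of another strain, by adjusted p in limma. Genes called there number 360 against NCFM and 662 against Ls-33, and those described above are given with their log2 difference, B. lactis 420 minus the other strain.

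Genes above NCFM were C3 (3.19), CASP5 (2.80), CEACAM1 (0.58), CEACAM5 (1.28), CEACAM7 (2.95), CXCL10 (1.46), CXCL8 (2.15), EGLN3 (1.56), FGG (0.72), ICAM1 (1.81), IL32 (1.15), KYNU (2.25), LRG1 (2.84), OLR1 (3.18), PI3 (3.28) and TNFRSF9 (2.05). The same genes were below Ls-33, with differences of C3 (-0.81), CASP5 (-2.10), CEACAM1 (-0.82), CEACAM5 (-1.16), CEACAM7 (-1.62), CXCL10 (-2.52), CXCL8 (-0.94), EGLN3 (-1.17), FGG (-0.76), ICAM1 (-1.37), IL32 (-0.80), KYNU (-1.88), LRG1 (-2.10), OLR1 (-1.40), PI3 (-1.10) and TNFRSF9 (-1.02).

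Genes above both strains were, against NCFM, IER3 (0.77), KCNJ13 (1.37), MIR146A (4.29), NFKBIA (0.95) and TNFAIP3 (2.03). Against Ls-33 their differences were IER3 (0.46), KCNJ13 (0.81), MIR146A (2.20), NFKBIA (0.73) and TNFAIP3 (0.71). EGR1 lay below both, with -0.28 against NCFM and -0.34 against Ls-33. Listed against NCFM alone were AOC3 (-0.81), BIK (1.06), CCL20 (2.73), ID1 (0.69), LYZ (0.94), SLC6A4 (-0.88), SMAD3 (0.72) and SQSTM1 (0.40). Listed against Ls-33 alone were FGB (-1.15), GINS2 (0.91), LGALS14 (0.81) and MCM2 (0.82). Whether these genes differ more in one contrast than in the other was not tested.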

How the results depend on the processing

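Against medium, 4184 genes were called, 3160 to 3184 when 1 array was left out, 4141 with the replicate block, and 7042 when every probe set was tested on its own, where the unit counted differs. Of 112 named calls against medium, 105 held under each alternative that tested them and 7 were lost under some. Against NCFM, the 360 calls became 184 without the trend, 107 with only the 4 arrays compared, 895 with every probe set and 329 with the replicate block, and 159 to 505 when 1 array was left out. Against Ls-33, the 662 calls became 245 without the trend and 615 with the replicate block, and 176 to 412 when 1 array was left out. Of the named calls against NCFM 26 of 30 held under each alternative that tested them, and against Ls-33 19 of 26. The 60th percentile filter left 21 of the named calls against medium untested, 6 of those against NCFM and 6 of those against Ls-33. No named call changed direction (0). Some differences that did not pass the test did. With 1 array left out, the range against medium was -0.0466 to 0.1086 for CYLD (-0.0124 without the first B. lactis 420 array), -0.0825 to 0.0560 for IRAK1 (0.0174 without the second medium array) and -0.2779 to 0.0375 for MYD88. Against NCFM it was -0.0648 to 0.2859 for MTTP and -0.0542 to 0.1708 for SLC2A5. Other differences that did not pass became calls under 1 alternative each. Without the second B. lactis 420 array these were AQP10 against NCFM and IER3 against medium. Also against medium, CXCL3 was called with only the 4 arrays compared and NOD1 without the trend. Fewer arrays leave fewer degrees of freedom, and otherwise the cause was not tested. Deviations of same-numbered arrays from their group means correlated at -0.10 to 0.06, so no shift shared by same-numbered arrays was seen. This check cannot show whether same-numbered cultures were handled together. Of counts of list members, 329 stayed within 1.5 times and 19 moved further, and with 1 array left out 203 and 29. Genes near background are limited by signal, and 143 calls against medium have a group mean under the floor.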
